A study of Mus musculus with 6 samples.

Results

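The 31 genes described here encode 21 integrin subunits and 10 laminin chains. They were taken by symbol from a table of 56748 mouse genes measured in brain. Integrins are cell surface receptors built from an alpha and a beta subunit. They bind matrix proteins or counter-receptors on other cells, and they also sit in the membrane of extracellular vesicles. Laminins are trimers of an alpha, a beta and a gamma chain that form the scaffold of basement membranes. In brain, basement membranes surround blood vessels and lie under the pia, where astrocyte endfeet, endothelial cells, mural cells and fibroblasts contribute chains.

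Polyadenylated RNA of homogenized mouse brain was sequenced, with 3 libraries at 3 days and 3 at 28 days after implantation. Every mouse had received MCF10DCIS cells, a human line that models ductal carcinoma in situ, carrying the vesicle protein CD63 fused to the NanoLuc luciferase. Brain was therefore compared between days in implanted mice, and no unimplanted mouse was analysed here. Strain, age and the brain parts sampled are not given in the sources used here, nor whether libraries of a day came from separate animals. Each library title carries its own number, which the labels do not define. The p-values below measure the spread between these libraries, which may be technical.

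Recovered depth ran from 11958137 to 16059196 reads per library, and the 31 genes held 0.0510% to 0.0705% of them. All values are normalized counts, that is, reads divided by a size factor per library. The 10 neuron markers summed to 97930 to 109459 normalized counts in every library, which fits the brain label. Day 3 replicates 1 and 2 stood apart in cerebellar neuron markers (summed 27613 and 26447, against 3259 to 6324 in the other libraries). Day 3 replicate 2 also stood apart in liver and plasma genes (summed 101069, against 37.6 to 1850). All 31 genes had a row in the table, and 29 had a mean of at least 10 and were tested.

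None of the 29 tested genes passed the threshold of adjusted p 0.05 between the days (limma, Benjamini-Hochberg over 16162 genes). In the same comparison 31 genes, or 0.192% of those tested, passed. At an unadjusted p under 0.05 there were 4 integrin and laminin genes, Itgav, Lama3, Itgb5 and Itga9, or 13.8% of the 29, against 13.4% of all tested genes. With voom on the recovered reads, 0 passed and 4 had an unadjusted p under 0.05, against 13.1% of all genes. The groups did not overlap for 6 of the 29 (20.7%), against 18.9% of all genes. Of those 6, Itgav, Itga9 and Lama3 were higher at day 28 (9.71% of all genes) and Itgb1, Itgb5 and Lamb2 lower (9.21% of all genes). Differences were negative for 15 of the 29, against 51.4% of all genes. These shares lie near the background. The median log2 difference, day 28 minus day 3, was -0.13 for 19 integrin genes and 0.06 for 10 laminin genes, beside -0.01 for all tested genes. Without day 3 replicate 1 the integrin median was 0.19. The 95% interval of the difference lay inside 2-fold in both directions for 18 of the 29 genes and reached past 2-fold for 11. Counts of calls over all genes depended on single libraries. Leaving out day 3 replicate 3, which left only the cerebellum-rich libraries at day 3, gave 623. Leaving out day 3 replicate 2 gave 2, day 28 replicate 1 gave 1, and either of the other day 28 libraries gave 2. The count of integrin and laminin genes was 0 in each.

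**Figure D1:**
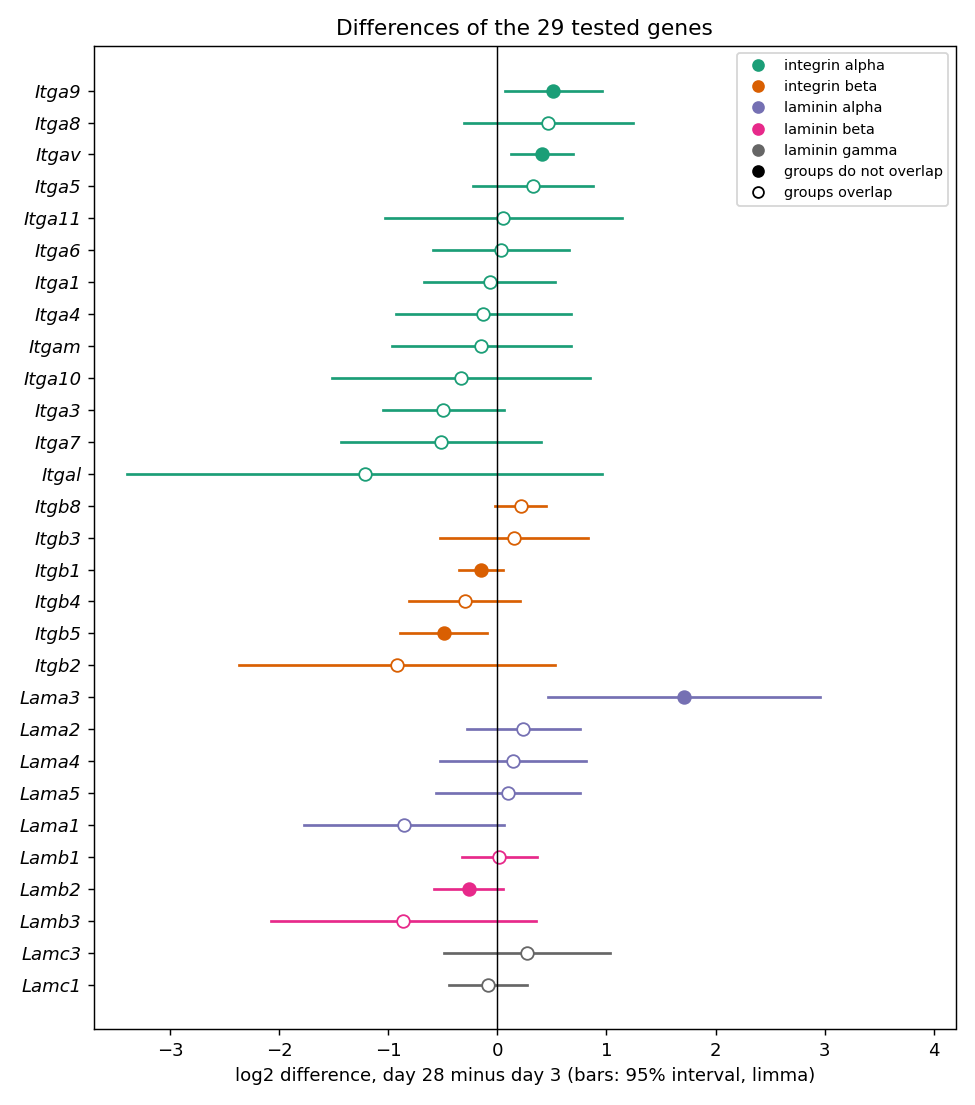
Points give the log2 difference (day 28 minus day 3) of the 29 tested genes on the horizontal axis, by subunit class, with 95% limma intervals as bars and filled points where the 3 libraries of each day do not overlap. The intervals of 4 genes exclude 0 before adjustment, and 6 points are filled.

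Levels between genes were compared per kilobase of exon, because longer transcripts collect more reads. On that scale Itgb1, the partner of most alpha subunits, was highest, with a mean of 294 normalized counts per kb (269 to 325 over the 6 libraries). Itgb5 followed at 190 (145 to 288), then Itgav at 115 (87.1 to 146) and Itgb8 at 98.7 (85.2 to 111). Itgb1 was above Itgb5 in each of the 6 libraries, although their ranges overlapped. The ranges of Itgav and Itgb8 overlapped too, and their order turned in day 3 replicate 3. The highest laminin chains were Lamc1 at 68.9 per kb (59.6 to 89.0) and Lamb2 at 64.9 (54.9 to 83.0). Among alpha subunits that bind laminin, Itga3 stood at 65.5 per kb, Itga6 at 43.7 and Itga7 between 13.2 and 47.3. At the other end were Itga2, a collagen receptor subunit, at 1.01 per kb and the epithelial subunit Itgb6 at 0.113. Itgb6 had 3, 2 and 0 reads at day 3 and 0 in each day 28 library, which allows up to 3 reads over that group. Itga2 had 3 to 14 reads per library, and both were left out of the test as too low. The first 4 places were the same with the longest transcript as length, and no gene moved by more than 4 places. Only 14 genes kept their place, and the order of Itga3 and Itga6 turned. Itga6 had 91.5 per kb of longest transcript and Itga3 76.9.

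**Figure D2:**
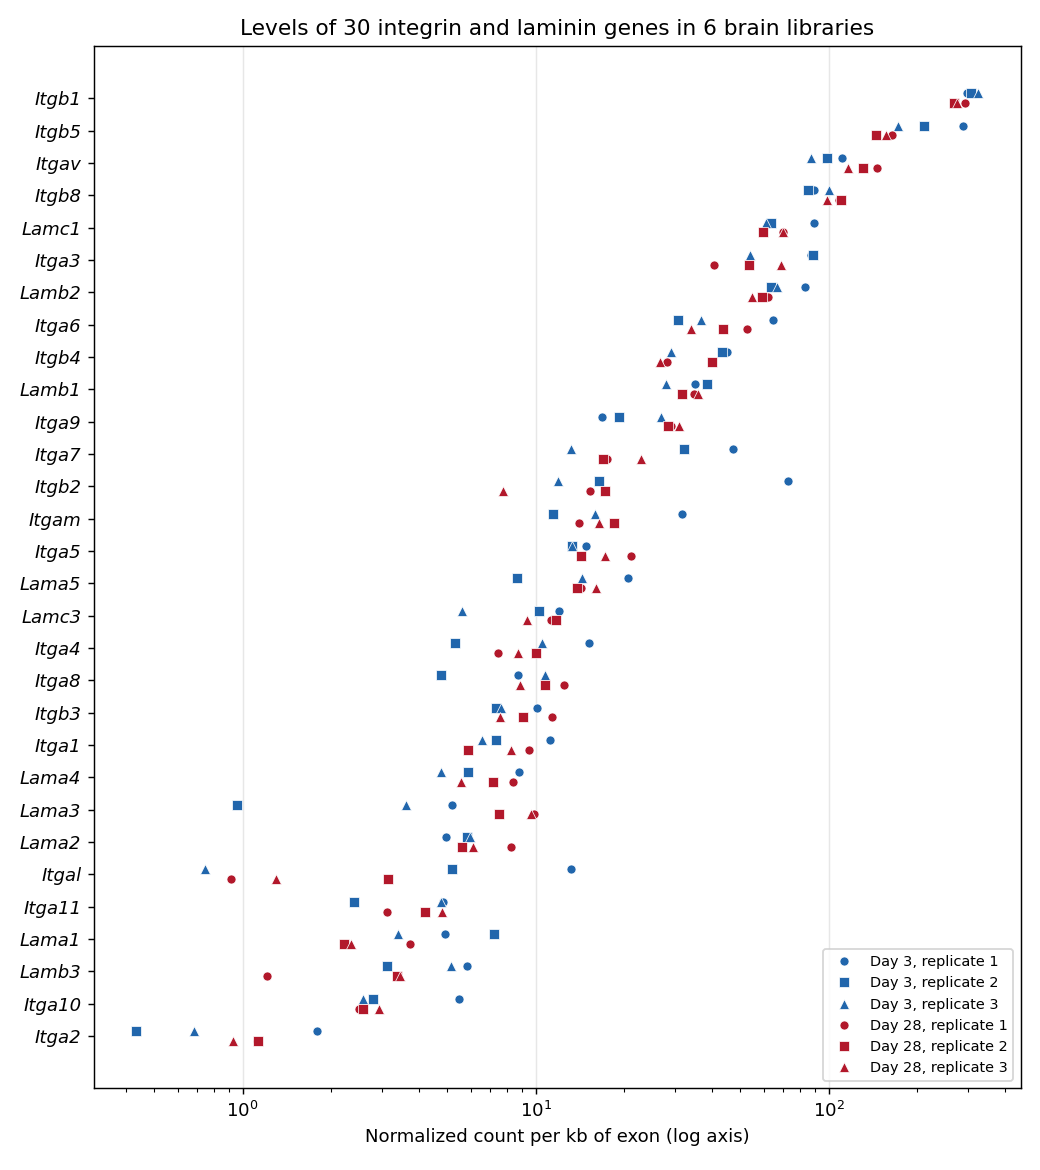
Normalized count per kb of exon (log axis) of 30 genes in each of 6 libraries, ordered by mean, with day 3 in blue and day 28 in red. Itgb6 is left out because 4 libraries had 0 reads; Itgb1 leads at 269 to 325 per kb.

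The beta subunit Itgb1 had 1215, 1251 and 1325 normalized counts at day 3 against 1192, 1098 and 1124 at day 28. Every day 28 library lay below every day 3 library, but by little, and the gene varied least of the 29 from library to library. Its log2 difference was -0.15 (SE 0.09, 95% interval -0.35 to 0.05, limma adjusted p = 0.503). Itgb4, which pairs with Itga6 to bind laminin in epithelia and also in brain vessels, ran from 203 to 315 at day 3 and from 187 to 281 at day 28 (log2 -0.30, adjusted p = 0.602). Itgb3, a vitronectin receptor subunit of platelets and vessels, ran from 43.2 to 59.5 and from 44.5 to 66.9 (log2 0.15, adjusted p = 0.866).

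The subunit Itgav pairs with Itgb1, Itgb3, Itgb5, Itgb6 or Itgb8. With Itgb8 it binds latent TGF-beta, and with Itgb5 it binds vitronectin. Itgav had 1196, 1058 and 936 normalized counts at day 3 against 1567, 1412 and 1253 at day 28. All 3 day 28 libraries were above all day 3 libraries. The log2 difference was 0.41 (SE 0.12, 95% interval 0.13 to 0.69, limma adjusted p = 0.207), which did not pass. Itgb5 had 1022, 751 and 616 at day 3 against 587, 516 and 557 at day 28. The groups did not overlap, day 3 replicate 1 was highest, and day 3 replicate 3 lay close to day 28. Its log2 difference was -0.49 (SE 0.17, interval -0.89 to -0.10, adjusted p = 0.266). With both cerebellum-rich libraries left out, an alternative chosen after seeing the data, 1 day 3 library remained. The difference was then -0.16 for Itgb5 and 0.59 for Itgav. Itgb8 had 984, 942 and 1111 at day 3 against 1199, 1224 and 1092 at day 28. Day 28 replicate 3 lay below day 3 replicate 3, so the groups overlapped (log2 0.21, SE 0.10, adjusted p = 0.411).

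Because a ratio within a library does not depend on the scaling, reads of Itgav and Itgb8 were also set against Itgb5. These ratios were chosen after the values were seen and were not tested. Itgav had 1.17, 1.41 and 1.52 reads per Itgb5 read at day 3 against 2.67, 2.74 and 2.25 at day 28. Itgb8 had 0.962, 1.25 and 1.80 reads per Itgb5 read at day 3 against 2.04, 2.37 and 1.96 at day 28. Neither ratio overlapped between the days, and each was lowest in the cerebellum-rich replicates 1 and 2 of day 3. For Itgav to Itgb5 this was fixed in advance. Itgav was already higher and Itgb5 already lower at day 28 without overlap, so that ratio adds no further evidence. The ratio of Itgav to Itgb8 did overlap, at 0.842 to 1.22 and 1.15 to 1.31. Whether the share of cerebellum had a part in these ratios was not tested.

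These 3 genes were picked after their ratios were seen, and the sequences just upstream of their starts are shown as background only. Each is the 250 bases before a RefSeq start on GRCm38.p6, an older build than the GRCm39 of the counts, and capitals mark GGGCGG on either strand (CCGCCC on the other), the GC box bound by Sp factors.
Itgav, chr2:83724147-83724396, + strand: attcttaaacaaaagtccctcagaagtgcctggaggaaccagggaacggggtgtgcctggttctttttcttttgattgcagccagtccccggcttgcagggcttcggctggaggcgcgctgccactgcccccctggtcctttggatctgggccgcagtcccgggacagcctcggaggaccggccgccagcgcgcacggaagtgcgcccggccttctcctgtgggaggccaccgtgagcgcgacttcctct
Itgb5, chr16:33829415-33829664, + strand: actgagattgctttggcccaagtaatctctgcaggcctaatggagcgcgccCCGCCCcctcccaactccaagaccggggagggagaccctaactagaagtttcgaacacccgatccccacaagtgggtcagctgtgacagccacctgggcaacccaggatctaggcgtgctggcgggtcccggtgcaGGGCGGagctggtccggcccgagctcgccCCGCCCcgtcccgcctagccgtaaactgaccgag
Itgb8, chr12:119238277-119238526, - strand: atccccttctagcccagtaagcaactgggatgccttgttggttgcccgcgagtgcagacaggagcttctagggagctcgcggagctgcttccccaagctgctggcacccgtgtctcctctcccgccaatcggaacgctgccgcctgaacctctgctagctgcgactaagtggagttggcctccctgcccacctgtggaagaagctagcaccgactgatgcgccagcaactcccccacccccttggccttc
The GC box occurred 3 times upstream of Itgb5, and 0 times in the windows of Itgav and Itgb8. It was present in 32.7% of all 32851 such windows in the RefSeq table. Of the 31 genes 20 had an entry, and 8 of those had the GC box in at least 1 window. Whether the GC box bears on the counts of Itgav, Itgb5 or Itgb8 was not tested.

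**Figure D3:**
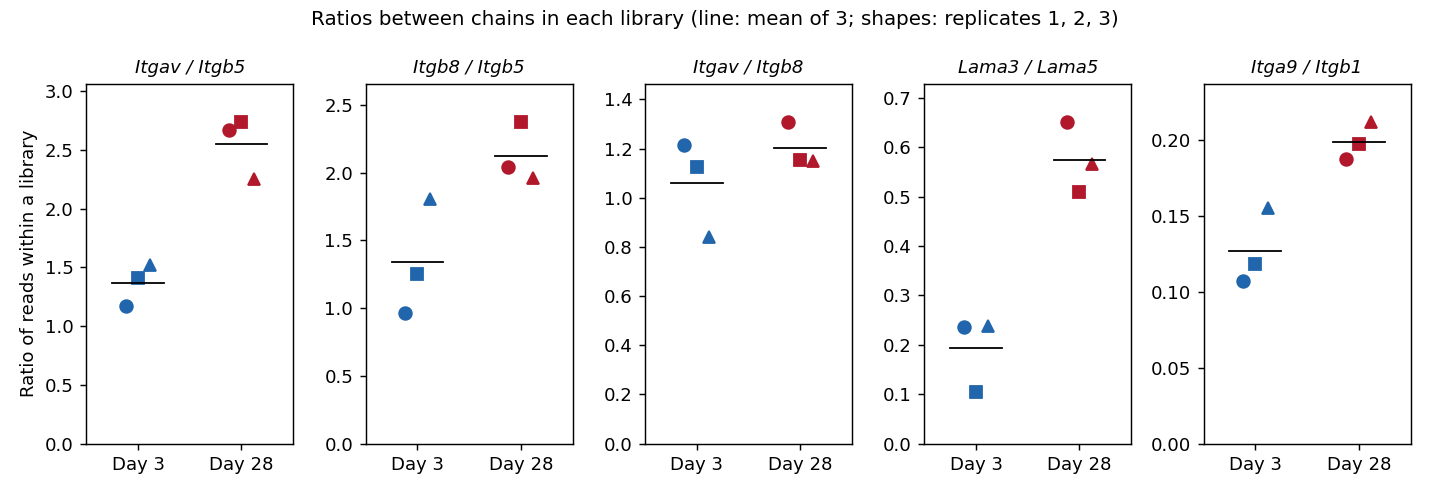
Each panel gives a ratio of reads between 2 chains in every library, with the days on the horizontal axis, shapes for replicates 1 to 3 and a line at the mean of 3. Itgav / Itgb5, Itgb8 / Itgb5, Lama3 / Lama5 and Itga9 / Itgb1 do not overlap between the days, and Itgav / Itgb8 does. Itgav / Itgb5 and Itga9 / Itgb1 had to lie apart, because their chains did so in opposite directions. Other ratios that were computed and overlapped are not shown.

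The subunit Itga9 pairs with Itgb1 and binds tenascin-C and other ligands. It had 130, 148 and 206 normalized counts at day 3 against 224, 217 and 238 at day 28. The groups did not overlap, and the lowest values were again those of day 3 replicates 1 and 2. Its log2 difference was 0.51 (SE 0.20, 95% interval 0.07 to 0.96, limma adjusted p = 0.302). It was 0.14 without those libraries, which left 1 day 3 library. Reads of Itga9 per Itgb1 read were 0.107, 0.118 and 0.155 at day 3 against 0.188, 0.198 and 0.212 at day 28. These ratios had to lie apart, since Itga9 was higher and Itgb1 lower at day 28 without overlap. Itga4, the closest relative of Itga9 and a subunit of the leukocyte receptor for VCAM1, went from 212, 74.0 and 147 to 104, 140 and 121. It overlapped between the days (log2 -0.13, adjusted p = 0.907).

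Among subunits that read RGD motifs, the tripeptide found in fibronectin, Itga8 had 64.1, 35.0 and 79.1 normalized counts at day 3 against 91.8, 79.5 and 65.4 at day 28. Day 3 replicate 2 was low and the others overlapped (log2 0.47, SE 0.34, limma adjusted p = 0.593). The fibronectin receptor subunit Itga5 ran from 65.7 to 73.3 at day 3 and from 70.5 to 105 at day 28 (log2 0.33, adjusted p = 0.601). The collagen receptor subunits Itga1, Itga10 and Itga11 had log2 differences of -0.07, -0.33 and 0.06, with adjusted p of at least 0.824. Itga1 ran from 109 to 208 over the 6 libraries, while Itga10 and Itga11 had 11 to 31 reads per library.

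Of the laminin-binding alpha subunits, Itga3 had 498, 506 and 309 normalized counts at day 3 against 232, 304 and 393 at day 28. Day 3 replicates 1 and 2 were high and the other libraries overlapped. The log2 difference was -0.50 (SE 0.24, 95% interval -1.05 to 0.06, limma adjusted p = 0.419). It was -0.03 without those replicates, which left 1 day 3 library. Itga7, a subunit of muscle and vessel laminin receptors, had 383, 260 and 107 at day 3 against 142, 138 and 186 at day 28. It followed the same split, with a log2 difference of -0.52 (limma adjusted p = 0.622) that turned to 0.52 with the 1 day 3 library left without those replicates. Itga6, the main laminin receptor subunit of endothelium, had 582, 277 and 332 at day 3 against 477, 394 and 305 at day 28 (log2 0.03, 95% interval -0.59 to 0.66, adjusted p = 0.974).

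The leukocyte integrins stood out in a single library. Itgb2, the beta subunit that they share, had 223, 50.4 and 36.5 normalized counts at day 3 against 46.9, 52.7 and 23.7 at day 28. Day 3 replicate 1 alone was high, and the other 5 libraries overlapped. The log2 difference was -0.92 (SE 0.64, 95% interval -2.37 to 0.53, limma adjusted p = 0.574), and -0.14 without that library. Itgal, the alpha subunit of the lymphocyte and monocyte receptor LFA-1, had 87.0, 33.9 and 4.87 at day 3 against 5.99, 20.5 and 8.53 at day 28. It was high in day 3 replicate 1 and next in replicate 2 (log2 -1.22, SE 0.96, adjusted p = 0.624), and the difference was -0.34 without day 3 replicate 1. Itgam, the subunit of the complement receptor of microglia and other myeloid cells, had 159 in day 3 replicate 1 and 57.6 to 92.9 elsewhere (log2 -0.15, adjusted p = 0.898).

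Itgax and Itgb7, leukocyte subunits that were not among the 31, had the same library on top. Itgax stood at 43.0 in day 3 replicate 1 against 1.90 to 12.5 elsewhere, and Itgb7 at 47.6 against 0.998 to 11.4. In bulk tissue, more cells of a type and more RNA per cell cannot be told apart. The 12 neutrophil and monocyte markers summed to 328 in day 3 replicate 1 and to 103 to 198 in the others, with Csf3r (190 against 81.5 to 97.3) and Plac8 (45.8 against 0 to 1.03) making up most of the sum. The neutrophil genes S100a8, S100a9, Ngp and Mmp8 of that list were instead highest in day 3 replicate 2, where S100a9 stood at 41.1 and Ngp at 18.5, against 4.58 and 1.83 in replicate 1. Of 14 lymphocyte markers, Cd3d and Klrb1c were at 0 in every library, and Cd4 made up most of the sum of 185 to 415. The 13 markers other than Cd4 summed to 18.3 in day 3 replicate 1, to 17.5 in replicate 2 and to less in each of the others (lowest 1.90). Cd3e and Cd8a were highest in day 3 replicate 1, each at 3.66. That is only a few reads, too few to rank the libraries by these genes. The 12 microglia markers summed to 6358 in that library and to 4523 to 5920 in the others. The part of these cells in the Itgb2 and Itgal values was not tested.

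**Figure D4:**
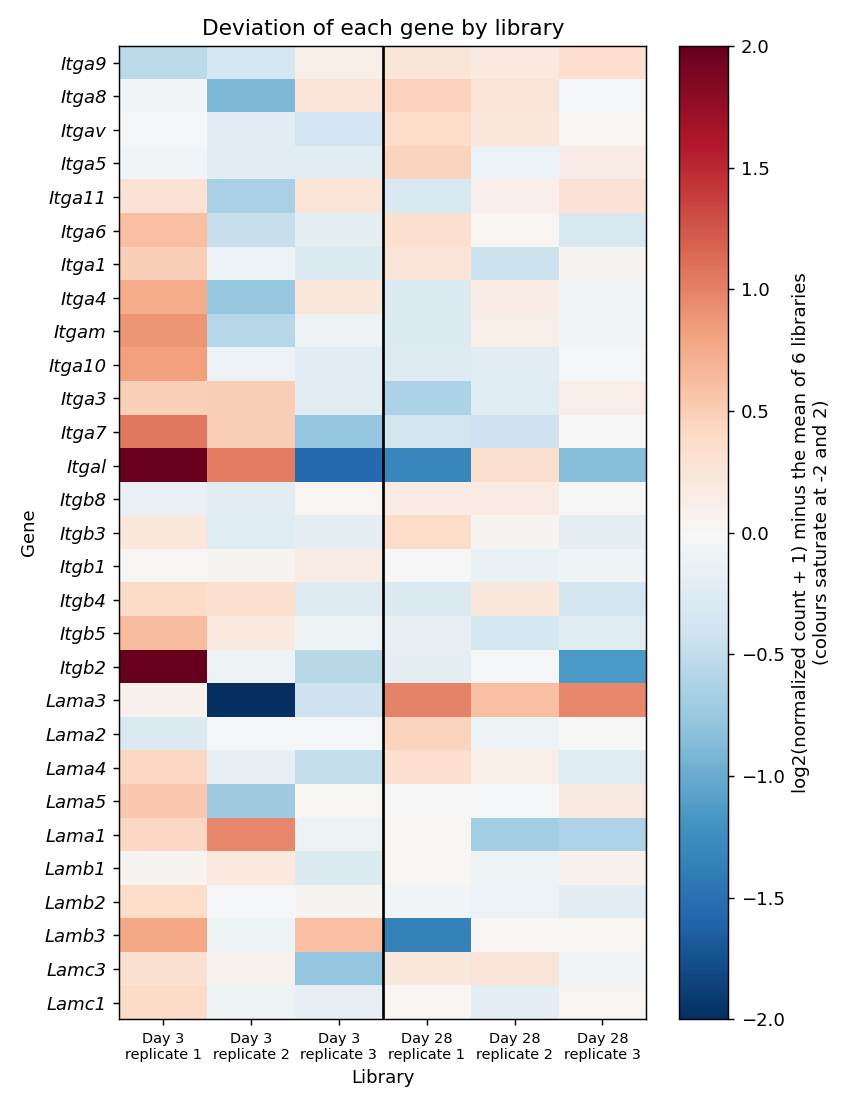
Colour gives the log2(normalized count + 1) of each of 29 genes (rows) in each library (columns) minus its mean over the 6 libraries, red above and blue below, saturating at 2 in either direction. Day 3 replicate 1 is the highest library for 17 of the 29 genes, with Itgal and Itgb2 reddest, and Lama3 is lowest in day 3 replicate 2.

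Day 3 replicate 1 was the highest library for 17 of the 29 genes (58.6%), 11 integrins and 6 laminins, against 20.5% of all tested genes. The endothelial markers had a like pattern, with 9 of 12 highest in that library and a sum of 5118 against 2962 to 3431 elsewhere. Pecam1, an endothelial adhesion molecule, had 371 in that library and 168 to 204 in the others. Other cells of the vessel wall did not share the pattern. Only 2 of 12 pericyte and smooth muscle markers and 4 of 12 fibroblast markers were highest in day 3 replicate 1. Their sums there were 3601 and 1788, below those of day 3 replicate 2 (4806, of which Vtn made up 2495, and 1940). The part of vessel content in the integrin and laminin values of that library was not tested.

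Among laminin alpha chains, Lama3, a chain of epithelial basement membranes, had 55.9, 10.3 and 38.9 normalized counts at day 3 against 106, 80.4 and 103 at day 28. All day 28 libraries were above all day 3 libraries, and day 3 replicate 2 was far below the rest with 10 reads. The log2 difference of 1.71 had the largest size of the 29 (SE 0.55, 95% interval 0.47 to 2.96, limma adjusted p = 0.228) and did not pass. It was 1.02 without day 3 replicate 2 (adjusted p = 0.385), and across the alternatives it ran from 1.02 to 2.19. Lama1, a chain of the pial and early basement membrane, had 47.6, 69.9 and 32.9 at day 3 against 35.9, 21.4 and 22.7 at day 28. Day 3 replicate 2 was highest, and the groups overlapped through day 28 replicate 1 (log2 -0.86, SE 0.40, 95% interval -1.77 to 0.06, adjusted p = 0.403).

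The alpha chains of brain vessels overlapped between the days. Lama5, a chain found under mature endothelium, had 236, 98.7 and 164 at day 3 against 163, 158 and 183 at day 28 (log2 0.10, SE 0.29, limma adjusted p = 0.919). Lama4, found with Lama5 under endothelium, ran from 57.2 to 106 and from 67.3 to 101 (log2 0.15, adjusted p = 0.870). Lama2, made by astrocytes, mural cells and fibroblasts, ran from 80.6 to 97.4 and from 92.0 to 135 (log2 0.24, adjusted p = 0.699). The intervals of these 3 chains reached from -0.56 to 0.82 on the log2 scale, so a difference of 2-fold in either direction lay outside them.

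Per kilobase, Lama5 made up 30.3% to 46.5% of the alpha chain signal of a library, and Lama4 14.0% to 20.6%. The shares given here used the union of exons as length and depend on that choice. Mean levels of Lama5 and Lama4 were 14.7 and 6.76 per kb of exon union, but 14.7 and 13.5 per kb of longest transcript. Lama3 made up 11.7%, 3.35% and 11.3% at day 3 against 22.2%, 20.6% and 24.2% at day 28, so that its share at day 28 was above each share at day 3. The share of Lama1 was 10.6% to 25.3% at day 3 and 5.92% to 8.35% at day 28. Reads of Lama3 per Lama5 read were 0.236, 0.104 and 0.237 at day 3 against 0.650, 0.508 and 0.565 at day 28. These shares and ratios were looked at after the values were seen, and no test was made of them. The 10 epithelial markers summed to 350 in day 3 replicate 2, where Lama3 was lowest, and to 34.1 to 74.2 in the others, with Cldn4 at 0 throughout and Krt5 and Krt14 at no more than 1.22. Day 3 replicate 2 was also the library rich in liver and plasma genes (summed 101069), so its epithelial sum need not come from epithelia of the brain. The part of epithelial cells or of liver RNA in these sums and in the Lama3 values was not tested.

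The beta chain Lamb2, of vascular and pial basement membranes, had 505, 387 and 405 normalized counts at day 3 against 377, 362 and 334 at day 28. The groups did not overlap, but day 3 replicate 2 lay close to day 28 replicate 1. Its log2 difference was -0.26 (SE 0.14, 95% interval -0.58 to 0.05, limma adjusted p = 0.446). Lamb1, the other main beta chain, had 348, 382 and 277 at day 3 against 343, 313 and 355 at day 28, with full overlap (log2 0.02, SE 0.15, interval -0.33 to 0.36, adjusted p = 0.976). Lamb3, the partner of Lama3 in epithelia, had 38.5, 20.6 and 34.1 at day 3 against 7.99, 22.3 and 22.7 at day 28. The difference of Lamb3 had the opposite sign to that of Lama3, at a log2 of -0.86 (SE 0.53, interval -2.07 to 0.35, adjusted p = 0.525), and its lowest library had 8 reads.

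The gamma chain Lamc1, part of most laminins, had 736, 527 and 506 normalized counts at day 3 against 578, 493 and 577 at day 28. Day 3 replicate 1 was highest and the rest overlapped (log2 -0.09, SE 0.16, 95% interval -0.45 to 0.27, limma adjusted p = 0.856). Lamc3 ran from 34.1 to 73.3 and from 56.9 to 71.4 (log2 0.27, adjusted p = 0.768). Lamc1 made up 83.6% to 91.6% of the summed Lamc1 and Lamc3 signal per kilobase.

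Of 22 partners of laminin in basement membranes, 1 fell and 0 rose, beside 0.124% and 0.0681% of all tested genes. The gene that fell was Sparc, a collagen-binding matricellular protein made by glia and vessels. It had 7922, 7273 and 6281 normalized counts at day 3 against 3046, 4056 and 3333 at day 28, so that every day 28 library was well below day 3. The log2 difference was -1.05 (SE 0.13, limma adjusted p = 0.0345). Sparc did not pass without day 3 replicate 2 (adjusted p = 0.133), day 28 replicate 1 (adjusted p = 0.241), replicate 2 (adjusted p = 0.105) or replicate 3 (adjusted p = 0.158), with voom (adjusted p = 0.0534), without the intensity trend (adjusted p = 0.254) or with a replicate block (adjusted p = 0.0842). Sparc also did not pass with both cerebellum-rich libraries left out, a fit that left 1 day 3 library. Its log2 difference ran from -1.16 to -0.86 in all alternatives. The 10 oligodendrocyte markers summed to 115333 to 137190 at day 3 and to 78294 to 97127 at day 28, and the 12 fibroblast markers to 1735 to 1940 and 1253 to 1704, both without overlap. Among the fibroblast markers Dcn fell (log2 -1.81, limma adjusted p = 0.0345). The 12 astrocyte markers overlapped, at 73006 to 76054 and 69727 to 73315, and Aldoc among them fell (log2 -0.68, limma adjusted p = 0.0345). The part of these cell types in the Sparc values was not tested. Tinagl1, a basement membrane protein, went from 133 ± 9.82 to 81.8 ± 6.85 (SD, n = 3 per day; limma adjusted p = 0.182) without overlap. Col18a1, a vascular and epithelial basement membrane collagen, had 583, 1142 and 94.9 at day 3 against 72.9, 92.9 and 136 at day 28 (log2 -2.03, limma adjusted p = 0.293). It was high in the cerebellum-rich libraries and highest in the one rich in liver genes, and its difference was 0.03 without them. Without day 3 replicate 3, which left only the cerebellum-rich libraries at day 3, it passed at -3.06 (limma adjusted p = 0.00722). The median of the 22 was 0.03.

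In the lists of receptors and signalling partners, 0 genes passed. Among 33 tested genes of integrin adhesion and signalling, 13 had positive and 20 negative differences, with a median of -0.08. Ptk2, the focal adhesion kinase, came closest, with 1171, 1140 and 1187 normalized counts at day 3 against 1632, 1539 and 1589 at day 28 (log2 0.44, SE 0.08, limma adjusted p = 0.0786). It passed without day 3 replicate 3 (limma adjusted p = 0.0375), which left only the cerebellum-rich libraries at day 3. Its groups lay far apart compared with their spread. Actn1, an actin crosslinker at adhesions, had a log2 difference of 0.48 (adjusted p = 0.140) and Tns3, a tensin that binds integrin tails, of -0.39 (adjusted p = 0.140), each without overlap. Among 17 tested genes of the dystroglycan complex and other laminin receptors, the median was 0.05. Dmd, encoding dystrophin, had 0.41 (adjusted p = 0.201), its relative Utrn 0.30 (adjusted p = 0.252), and Bcam, a receptor for Lama5, -0.38 (adjusted p = 0.296). For Dag1, which encodes dystroglycan itself and was chosen after its values were seen, the difference was 0.05 (adjusted p = 0.888).

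Among 30 tested genes for other integrin ligands 0 passed, and the median was -0.10. Ltbp1, which holds latent TGF-beta in the matrix, went from 58.4 ± 11.7 to 120 ± 14.7 normalized counts (SD, n = 3 per day; log2 1.04, limma adjusted p = 0.132) without overlap. Icam5, a neuronal ligand of Itgal with Itgb2, had 2284, 2089 and 2804 at day 3 against 3654, 3224 and 2833 at day 28 (log2 0.44, adjusted p = 0.208). Fn1, fibronectin, had 1542, 1552 and 654 at day 3 against 651, 537 and 590 at day 28 (log2 -0.97, adjusted p = 0.211). Day 3 replicate 3 lay barely above day 28 replicate 1, and the difference was -0.15 without day 3 replicates 1 and 2. Without day 3 replicate 3, Fn1 passed (limma adjusted p = 0.00414) and so did Icam5 (limma adjusted p = 0.0477). That fit kept only the cerebellum-rich libraries at day 3. Alb, a liver transcript, stood at 67650 in day 3 replicate 2 and at 21.1 in replicate 1, and the part of liver RNA in the Fn1 values was not tested. Of the 5 tested genes of other integrin and laminin chains, 0 passed, and Itgb7 (log2 -1.53) and Itgbl1 (log2 -0.46) had adjusted p of 0.544 and 0.764.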

How the data were processed

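The deposited table holds log2 values for 56748 genes in 6 libraries, which the authors made from poly(A)-selected, stranded libraries per the labels' protocols. The genome build was GRCm39, per the submitters' processing notes. The aligner, counting tool and scaling tool are not given in the sources used here. When the log2 and a pseudocount of 1 were undone, 100% of values were whole numbers of reads times one factor per library (tolerance 0.001 reads), so the values are log2(reads / size factor + 1).

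The deposited log2 values were compared with limma 3.58.1 in R 4.3.3 (intensity trend, group as the only term, 4 residual degrees of freedom, two-sided, Benjamini-Hochberg at 0.05) over the 16162 genes whose normalized count averaged at least 10. These held 99.77% to 99.84% of a library's reads. The fit was also run on simulated counts, drawn gene by gene without shifts in tissue content between libraries. That run cannot show how the fit handles the cerebellar and liver differences between these libraries. A fold change on the log2(value + 1) scale understates changes of low genes. Symbols came from GENCODE M21, an older build, matching 52073 identifiers and all 31 genes, and exon lengths were the union of its exons. Intervals cover 95%. The genes and lists were chosen with earlier results of these data known. Values per library are given for the 12 genes of smallest p and the 4 integrins and 4 laminins of highest level, and for others chosen after their values were seen. In each other list the 3 genes of smallest p and those past the threshold are named, except 1 that is not reported here. Replicate libraries differed beyond sampling noise (chi-square per degree of freedom at least 8.93). Figures used matplotlib 3.10.9.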

Additional observations from a re-analysis of the deposited data

How the results depend on the processing

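The count of integrin and laminin genes past the threshold was 0 in all 19 alternatives, 18 planned and 1 added after seeing the data. Over all genes, 31 passed. The count was 68 with no filter, 3 without the intensity trend, 74 with robust empirical Bayes, 69 with library weights, 152 at a threshold of 0.1, 0 with voom, 1 to 623 with single libraries left out and 0 without the 2 libraries rich in cerebellar transcripts. With a replicate block 0 genes passed. Same-numbered libraries did not pair (correlations of deviations from the group means 0.03, 0.13 and -0.06 for numbers 1 to 3, and day 3 replicate 1 correlated best with day 28 replicate 3 at 0.16).

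The integrin median ran from -0.21 to 0.19 with single libraries left out and was 0.089 without the cerebellum-rich libraries, and the laminin median ran from -0.08 to 0.12. Of the 29 genes, 13 kept the sign of their log2 difference in every alternative. With single libraries left out, the differences ran from -0.23 to 0.16 for Itga1, -0.55 to 0.21 for Itga4, -0.47 to 0.26 for Itgam, -0.19 to 0.084 for Lamc1, -0.19 to 0.35 for Itga6, -0.26 to 0.22 for Itga11, -0.23 to 0.39 for Lama5, -0.051 to 0.39 for Lama4, -0.11 to 0.12 for Lamb1 and -0.051 to 0.49 for Lamc3. With library weights the sign turned for Itga1 (0.025), Itga4 (0.024) and Itgam (0.014). Without the cerebellum-rich libraries it turned for Itga1 (0.24), Itga7 (0.52), Itga8 (-0.017), Itga10 (0.042), Itga11 (-0.25), Itgal (0.94), Itgam (0.022), Itgb2 (0.089), Itgb4 (0.10), Lamc1 (0.11) and Col18a1 (0.034). That fit left 1 day 3 library, assumed to vary like the day 28 ones. The cause was not tested. Itga10 and Itga11, with at most 31 reads in any library, had intervals reaching past 2-fold.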
